A study of Mus musculus with 15 samples.

Results

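The genes described here are 54 chromatin regulators in which mutations are known to cause, or have been linked to, human neurodevelopmental disorders. They were taken as a fixed list of gene symbols, and each was matched to the GENCODE M21 annotation of the mouse genome build GRCm38 (mm10), which holds 21938 protein-coding genes on chromosomes 1 to 19, X and Y. All 54 were found. For each gene the summits of H3K4me3 peaks within 1 kb of any of its annotated transcription start sites (TSSs) were collected as promoter summits, and summits between the gene's ends but over 1 kb from all of its own TSSs were collected as gene body summits.

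The study asked how an H3K4 methyltransferase, KMT2A, and an H3K4 demethylase, KDM5C, act together in the brain. Amygdala nuclei from adult male F1 hybrids of the strains 129S1/SvImJ and C57BL/6J were profiled by H3K4me3 ChIP-seq, with 2 WT mice and 3 mice each of Kmt2a-HET, which lack 1 copy of Kmt2a, of Kdm5c-KO, which lack their only copy of the X-linked Kdm5c, and of DM, which carry both mutations, and with 1 input library per genotype. Only the WT peaks are used here. They came as 1 list of 24162 summits for both WT mice, 24139 of them on the chromosomes named above. How the 2 mice were combined is not stated. With a single list there is no spread between mice and no test between genotypes. Differences between genes are therefore given as values and counts beside those of all protein-coding genes.

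Each summit carries a score, taken here to be the −log10 q-value of the enrichment over input. A score rises with both the enrichment and the number of reads, and is neither a fold change nor a level of the mark. The median score of the list was 102, with quartiles of 15.02 and 201. Many summits had the same score: 84.4% of the summits shared theirs with another, and the 54 regulators had 42 distinct best scores, so equal values are ties of the scoring and do not rank the genes.

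H3K4me3 is the trimethyl mark on lysine 4 of histone H3. It sits around the start sites of active and poised genes, above all at CpG islands, where proteins with CXXC domains bind unmethylated CpG and bring the COMPASS family of methyltransferases. Chromatin regulators write, read and erase such marks, slide or evict nucleosomes, methylate or oxidise DNA, or hold chromatin loops. Brain development is sensitive to their dose, and loss of a single allele is enough to cause many of the syndromes linked to them.

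Reference sequences show what the start sites behind the highest and the lowest promoter scores look like. Tet2, a dioxygenase that oxidises 5-methylcytosine, had the highest best promoter score, and Kdm6b, a demethylase of H3K27, had the lowest. The 150 bases shown for Tet2 lie upstream of the TSS of transcript Tet2-202, at chr3:133544361-133544510 on the minus strand, and include at most 30 bases of annotated UTR. Those of Kdm6b lie directly upstream of the TSS of transcript Kdm6b-201, at chr11:69413676-69413825 on the minus strand. The last sequence is centred on the gene body summit of Kdm6b, at chr11:69411505-69411654. All sequences here were read from the GRCm38 reference and are written 5′ to 3′ along the gene, with each CG dinucleotide in capitals (a CG reads the same on both strands).
Tet2 promoter: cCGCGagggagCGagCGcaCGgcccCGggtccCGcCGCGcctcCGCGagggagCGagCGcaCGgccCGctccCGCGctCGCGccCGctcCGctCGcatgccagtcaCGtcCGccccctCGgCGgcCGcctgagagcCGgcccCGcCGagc
Kdm6b promoter: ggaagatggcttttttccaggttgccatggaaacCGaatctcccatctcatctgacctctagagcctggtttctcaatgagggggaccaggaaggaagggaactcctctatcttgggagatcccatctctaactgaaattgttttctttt
Kdm6b gene body summit: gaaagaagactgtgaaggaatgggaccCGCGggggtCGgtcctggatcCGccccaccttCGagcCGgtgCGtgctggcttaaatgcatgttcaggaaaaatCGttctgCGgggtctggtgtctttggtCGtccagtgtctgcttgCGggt
The Tet2 window holds 30 CG, the Kdm6b promoter window 1 and the window at the Kdm6b gene body summit 11. For comparison, the 150 bases upstream of the outermost TSS of all protein-coding genes held a median of 6 CG, with quartiles of 2 and 12, and 87.4% of them held at least 1. The Tet2 window lies 75 bases upstream of a TSS that is not the outermost, and the Kdm6b gene body window is centred on a summit. Neither is therefore a window of the same kind.

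A further 3 regulators, chosen after their values were seen, show a marked internal start site beside an unmarked outermost one. Dnmt1, the maintenance DNA methyltransferase, was marked at the TSS of Dnmt1-207 and not at that of Dnmt1-202. Tet3, which oxidises 5-methylcytosine as Tet2 does, scored highest at Tet3-205 and was unmarked at Tet3-204. Hdac4, a class IIa histone deacetylase, was marked at Hdac4-205 and unmarked at Hdac4-211. The windows are 150 bases long and lie upstream of the TSS, on the minus strand: for Dnmt1 at chr9:20952606-20952755 (marked) and chr9:20959889-20960038 (outermost), for Tet3 at chr6:83441646-83441795 and chr6:83459085-83459234, and for Hdac4 at chr1:92180312-92180461 and chr1:92195700-92195849.
Dnmt1 marked: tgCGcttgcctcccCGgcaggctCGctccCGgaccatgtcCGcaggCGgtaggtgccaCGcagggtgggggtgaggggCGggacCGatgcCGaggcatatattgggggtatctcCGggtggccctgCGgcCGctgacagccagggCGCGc
Dnmt1 outermost: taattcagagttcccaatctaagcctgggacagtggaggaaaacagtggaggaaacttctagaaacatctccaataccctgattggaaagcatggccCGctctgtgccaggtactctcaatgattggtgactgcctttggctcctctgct
Tet3 marked: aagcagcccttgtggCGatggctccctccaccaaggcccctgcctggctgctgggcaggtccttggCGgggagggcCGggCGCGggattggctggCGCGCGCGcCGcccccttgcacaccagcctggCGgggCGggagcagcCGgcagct
Tet3 outermost: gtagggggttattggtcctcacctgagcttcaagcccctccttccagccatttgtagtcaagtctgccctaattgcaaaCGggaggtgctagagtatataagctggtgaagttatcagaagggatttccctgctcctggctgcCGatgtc
Hdac4 marked: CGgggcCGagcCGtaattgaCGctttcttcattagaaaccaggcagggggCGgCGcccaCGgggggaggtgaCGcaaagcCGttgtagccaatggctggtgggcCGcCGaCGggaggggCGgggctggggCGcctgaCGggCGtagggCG
Hdac4 outermost: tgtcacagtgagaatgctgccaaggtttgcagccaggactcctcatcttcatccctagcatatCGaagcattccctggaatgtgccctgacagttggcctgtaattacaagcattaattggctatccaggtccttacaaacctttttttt
The marked windows hold 15, 13 and 17 CG for Dnmt1, Tet3 and Hdac4, and the outermost windows of the same genes hold 1, 2 and 1. These 3 genes do not stand for all regulators with an unmarked outermost TSS, some of which are not poor in CpG there, as described further on.

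All 54 regulators had a promoter summit, while 64.7% of all protein-coding genes did (14197 of 21938). Promoter summits were more frequent in coding genes that resemble the regulators in length or number of start sites: 86.3% of those of at least 50 kb and 91.2% of those with at least 5 annotated TSSs had one. Of the 54 regulators, 38 are of that length and 44 have that many TSSs. The median best promoter score of the 54 was 204, with quartiles of 162 and 219. For the marked protein-coding genes, those with at least 1 promoter summit, the median was 195, with quartiles of 130 and 230. For marked genes with at least 5 TSSs it was 205, with quartiles of 161 and 234. The quartiles of the regulators thus lay closer together than those of all marked genes, around a similar median. Their lower quartile was close to that of marked genes with at least 5 TSSs. Of the 54, 5 scored below the lower quartile of the marked protein-coding genes, 19 between it and their median, 18 between the median and the upper quartile, and 12 above. In absolute terms 30 of the 54 scored over 200, 15 scored 150 to 200, 7 scored 100 to 150, and 2 scored under 100. The regulators differed from the average coding gene in other ways that the list did not select for. Their median length was 82593 bp against 17425 bp, their median number of annotated TSSs was 7 against 3, and the median ratio of observed to expected CpG within 500 bp of the outermost TSS was 0.83 against 0.55. The part of CpG content in the share with a promoter summit was not tested.

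**Figure D1:**
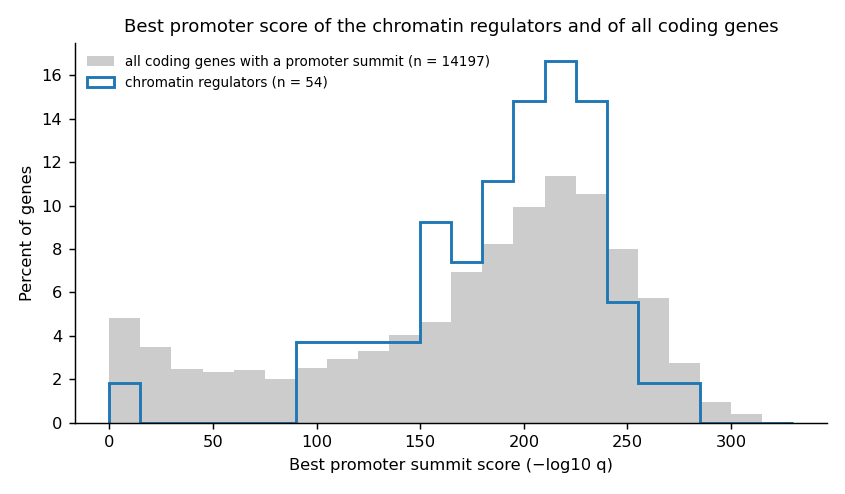
Best promoter summit score (−log10 q, x axis) against the percent of genes in each bin (y axis), for the 54 regulators (blue line) and the 14197 protein-coding genes with a promoter summit (gray). Both sets peak between 200 and 250, and a single regulator, Kdm6b at 6.24, lies in the low tail that holds a part of the coding genes.

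The methyltransferases of H3K9 and H3K36 add marks of silent and of transcribed chromatin. Ehmt1, mutated in Kleefstra syndrome, and Ehmt2 form the enzyme that mono- and dimethylates H3K9. Ehmt2 had 2 promoter summits on chromosome 17, of score 231 at position 34899523, 171 bp upstream of the TSS of Ehmt2-212, and of score 169 at position 34898215, 254 bp upstream of the outermost TSS. The second lay 50 bp downstream of the start of C2, a complement gene on the opposite strand, so its reads cannot be divided between the 2 genes. Ehmt1 had a single summit of score 184. Nsd1, the Sotos syndrome gene, and Nsd2 dimethylate H3K36, and Setd2 trimethylates it. Setd2 had 1 promoter summit of score 208. Nsd2 had promoter summits of 158 at position 33821591 of chromosome 5, 762 bp downstream, and of 153 at 33820109, 616 bp upstream, so summits of similar score flanked its start. Nsd1 scored 154 at position 55212722 of chromosome 13, 336 bp downstream of the TSS of Nsd1-208, and had weak gene body summits of 14.3 and 6.24. Setd5, a SET domain protein linked to intellectual disability, had the fifth highest score of the 54, 246 at position 113077856 of chromosome 6, 217 bp downstream of a TSS, and a weak gene body summit of 6.20. Its promoter summit lay 523 bp upstream of the start of Gt(ROSA)26Sor, a noncoding gene on the opposite strand.

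The core of Polycomb repressive complex 2 (PRC2), which methylates H3K27, had 1 promoter summit at each gene and no gene body summit. Eed, the subunit that reads H3K27me3, scored 226, Suz12, the scaffold, 217, and Ezh2, the catalytic subunit and Weaver syndrome gene, 165. The summit of Eed lay within 1 kb of the noncoding gene E230029C05Rik on the opposite strand. Ezh2 was below the median of the marked coding genes, and Eed and Suz12 were between the median and the upper quartile.

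The CHD remodellers use ATP to move nucleosomes and read histone tails through paired chromodomains. Their best scores ranged widely, from 118 to 263. Chd2, mutated in epileptic encephalopathy, had the second highest score, 263 at position 73540932 of chromosome 7, 593 bp downstream of a TSS, as its only summit. Chd4, the motor of the NuRD complex, came next with 248 at position 125097179 of chromosome 6, 610 bp downstream, also alone. Chd3, a related NuRD motor, scored 153. Chd1, which binds H3K4me3 itself, had 204 at position 15704639 of chromosome 17, 328 bp upstream, and 135 at 15705757, 739 bp downstream. Chd8, a high-confidence autism gene, had 4 promoter summits, the most of the 54, described with the separate promoters further on. Chd7, the CHARGE syndrome gene, had the fifth lowest score. Its promoter summits on chromosome 4 scored 118 at position 8690024, 382 bp upstream, 67.0 at 8690658, 188 bp downstream, and 42.1 at 8692196, 831 bp downstream. Chd7 also had gene body summits of 27.2 and 3.63, which lay 175852 and 176850 bp from the 5′ end of a gene of 177254 bp.

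The BAF complex is the mammalian SWI/SNF remodeller, and its subunits are the main Coffin-Siris syndrome genes. Its ATPase Smarca4 had promoter summits of 234 at position 21616757 of chromosome 9, 493 bp downstream, and of 169 at 21615731, 438 bp upstream. The core subunits Smarcb1, Smarcc2 and Smarce1 had 1 summit each, of 213, 206 and 202, and Smarcc1, a core subunit as well, scored 215 at its best promoter summit. The DNA-binding ARID subunits scored lower than these with the window of 1 kb, while with 3 kb Arid2 reached 204, above Smarce1. Arid2, of the PBAF form, had 147, and Arid1b and Arid1a, of the canonical form, had 171 and 99.0. Arid1b, the most frequently mutated Coffin-Siris gene, had its best promoter summit at position 4997222 of chromosome 17, 793 bp downstream of the TSS of Arid1b-206, and another of 67.0 at 4993917, 415 bp upstream of the outermost TSS. Of its 3 gene body summits, those of 12.1 and 26.1 lay 2173 and 3791 bp past the TSS of Arid1b-206, and the third, of 165 at position 5190043, lay 195711 bp into the gene and 149465 bp from its nearest annotated start. Smarca2, the alternative ATPase and Nicolaides-Baraitser syndrome gene, is described with the genes whose gene body summit exceeded the promoter.

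The DNA methylation enzymes ranged from 100.1 to 280.2. The oxidases Tet2 and Tet3 were among the 5 highest scores of the 54. Tet2 scored 280.2 at position 133543884 of chromosome 3, 402 bp downstream of the TSS of Tet2-202, as its only summit. Tet3 scored 246 at position 83441414 of chromosome 6, 218 bp downstream of Tet3-205, and this summit lay 341 bp upstream of the start of B230319C09Rik, a noncoding gene on the opposite strand. Tet1 was lower, with 171. Of the methyltransferases, Dnmt1 scored 213, and the de novo enzymes Dnmt3b, the ICF syndrome gene, and Dnmt3a, the Tatton-Brown-Rahman syndrome gene, scored 109 and 100.1. Dnmt3b was among the 5 lowest of the 54, with a single summit at position 153649833 of chromosome 2, 216 bp downstream and within 1 kb of the antisense gene Dnmt3bos. Dnmt3a was the third lowest by its promoter, with 100.1 at position 3806209 of chromosome 12, 202 bp downstream of a TSS, and 29.9 at 3807252.

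Among the genes of histone acetylation, the acetyltransferases and Kansl1 had best scores from 186 to 240.0 and the deacetylases Hdac4 and Hdac8 of 156 and 131. The order rests on the start sites counted: with TSSs of protein-coding transcripts only, Ep300 scored 68.6, below both deacetylases. Ep300 and Crebbp, the Rubinstein-Taybi syndrome coactivators, had 2 promoter summits each. Those of Ep300 scored 240.0 at position 81586590 of chromosome 15, 370 bp downstream of Ep300-205, a retained-intron transcript, and 68.6 at 81584942, 409 bp upstream of the outermost TSS. Those of Crebbp scored 204 at position 4212993 of chromosome 16, 420 bp downstream, and 98.7 at 4214535, 538 bp upstream. In both genes the downstream summit was the higher. Kat6b, a MYST acetyltransferase, scored 200.2 at position 21499954 of chromosome 14, 100 bp downstream of a TSS that lies in the gene, and had a weak gene body summit of 7.12. Its paralogue Kat6a had 187 at position 22860269 of chromosome 8, 720 bp downstream, and 142 at 22858841, 694 bp upstream. Kansl1, the scaffold of the NSL acetyltransferase complex and Koolen-de Vries syndrome gene, scored 186. Hdac4 had 156 at position 92179525 of chromosome 1, 772 bp downstream of Hdac4-205, and 126 at 92180762, 421 bp upstream of another TSS, and Hdac8, which deacetylates the cohesin subunit SMC3, had 131.

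The demethylases held the lowest score of the 54. Phf8, which removes H3K9 and H4K20 methylation, and Kdm6a, the Kabuki syndrome demethylase of H3K27, both scored 213. Kdm6b, the paralogue of Kdm6a, scored 6.24 at position 69413125 of chromosome 11, 550 bp downstream of its TSS, and 2.63 at 69414270, 595 bp upstream. Of the marked coding genes 1.61% scored lower. Its gene body summit, described further on, scored 219.

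Asxl1, Asxl2 and Asxl3 are partners of the H2A deubiquitinase BAP1, and Bcor belongs to the variant PRC1.1 complex. Asxl2 scored 236 at position 3427107 of chromosome 12, 195 bp downstream, with a weak gene body summit of 4.45. Its promoter summit lay 96 bp upstream of the start of the antisense gene 1110002L01Rik. Asxl1, the Bohring-Opitz syndrome gene, scored 182, Bcor 162, and Asxl3, the family member known for its expression in brain, 142.

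Of the other nuclear proteins, Adnp, which forms the ChAHP complex with CHD4, scored 234 at position 168206131 of chromosome 2, 578 bp downstream, and 73.2 at 168207099, 13 bp downstream of the outermost TSS. Ankrd11, the KBG syndrome gene, had 219 at position 123042759 of chromosome 8, 482 bp upstream, and 172 at 123041572, 448 bp downstream, and a noncoding gene, 2810013P06Rik, starts between them on the opposite strand. Bptf, the H3K4me3-reading subunit of NURF, had 215 at position 107131310 of chromosome 11, 612 bp downstream, and 55.0 at 107132435, 308 bp upstream. Phf6, the Borjeson-Forssman-Lehmann syndrome gene, had 208, and Atrx, which loads histone H3.3 in heterochromatin, had 189.

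CTCF and cohesin form chromatin loops, and cohesin genes are mutated in Cornelia de Lange syndrome. Each of the 5 had a single promoter summit. Ctcf scored 232, Nipbl, the cohesin loader, 217, Smc3 206, Smc1a 182, and Rad21 171. Smc3, whose promoter summit lay at position 53601279 of chromosome 19, 881 bp downstream of its TSS, had a gene body summit of 1.78, the lowest of all summits of the 54 genes. The summits of Ctcf and Smc1a lay within 1 kb of the coding genes Agrp and Ribc1, which start on the opposite strand.

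**Figure D2:**
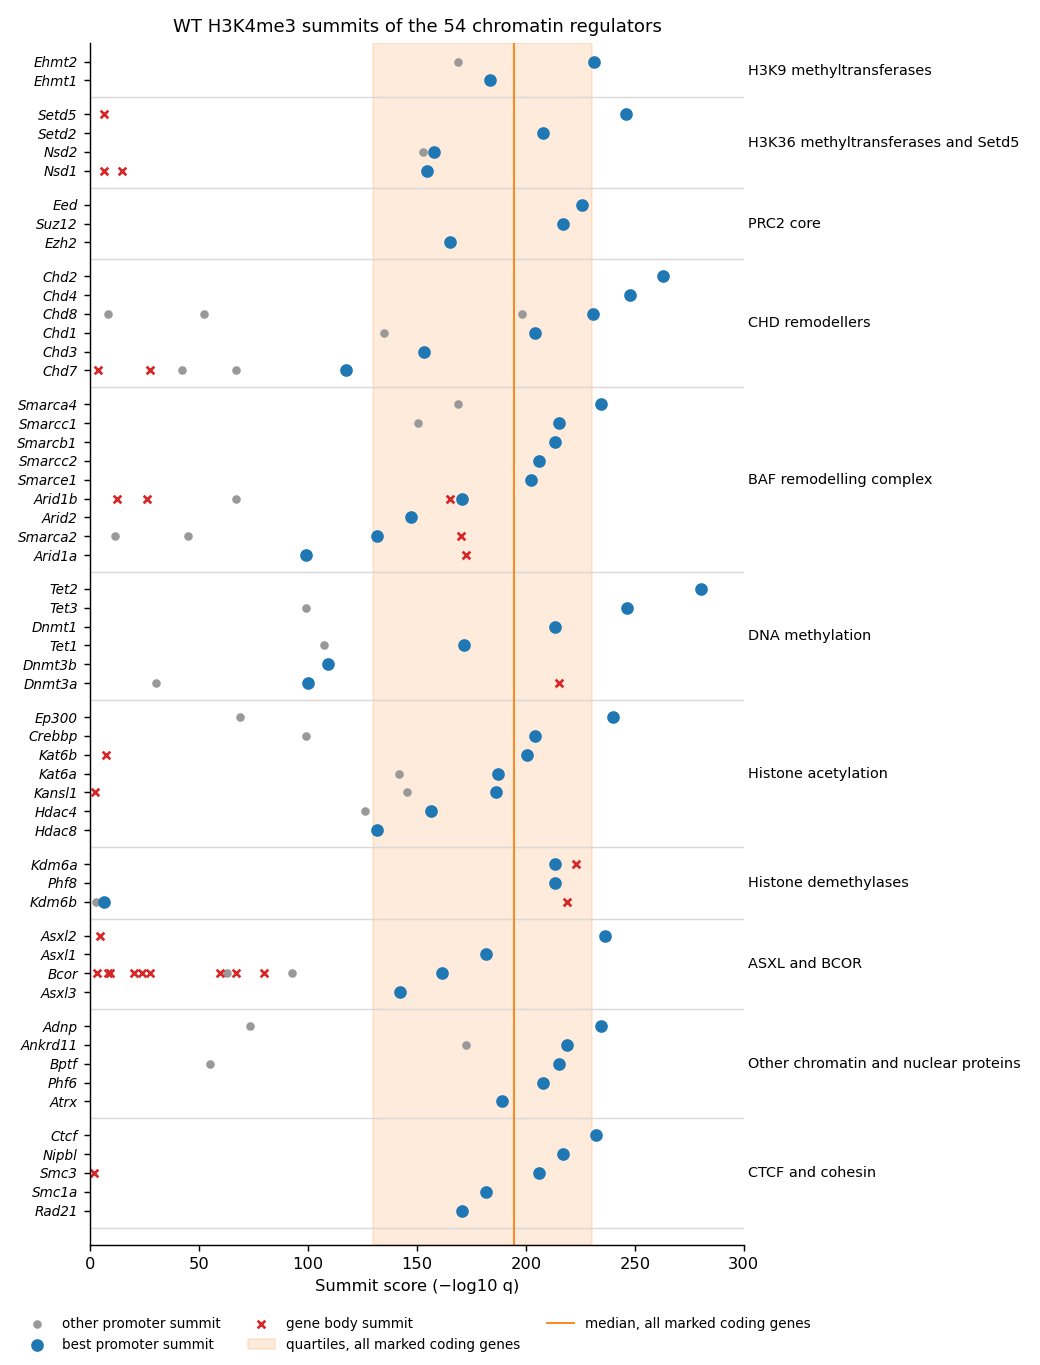
Summit score (−log10 q, x axis) of the 54 regulators, grouped by role (y axis): large blue points are the best promoter summits, gray points other promoter summits, red crosses gene body summits, and the orange line and band are the median of 195 and the quartiles of 130 and 230 of all marked protein-coding genes. Most best promoter summits lie within the band, and those of Kdm6b, Arid1a, Dnmt3a, Dnmt3b and Chd7 lie left of it.

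Role medians ranged from 172 to 217. They were 217 for both PRC2 and the CHD remodellers, 215 for the other nuclear proteins, 213 for the demethylases, 207 for the H3K9 methyltransferases, 206 for CTCF and cohesin, 202 for BAF, 192 for DNA methylation, 187 for acetylation, 183 for the H3K36 methyltransferases with Setd5, and 172 for the ASXL and BCOR genes. These medians rest on 2 to 9 genes each. The spread among the CHD genes and among the DNA methylation enzymes was larger than that between the role medians.

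Several promoter summits were common among the regulators. Of the 54 genes 32 had 1 promoter summit, 18 had 2, 3 had 3, and 1 had 4, so 22 had at least 2 (40.7%), against 11.7% of all protein-coding genes. Of the coding genes with at least 5 annotated TSSs, 22.2% had at least 2 promoter summits, and of the 44 regulators with at least 5 TSSs 40.9% did. The genes with several summits were spread over the roles except PRC2, CTCF and cohesin, which had none. In 6 of the 22 the summits lay far apart, and in the other 16 they spanned at most 3305 bp, in Arid1b.

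In 6 regulators (11.1%) promoter summits were separated by a gap of over 10 kb, against 4.62% of all protein-coding genes. This group was formed after the values were seen. The TSSs of a regulator spanned a median of 53024.5 bp, against 2822 bp for all protein-coding genes. No share was computed for coding genes of similar TSS span or length. The part of that span in this contrast was therefore not tested. Tet3 had its best summit of 246 at Tet3-205, 17670 bp into the gene, and another of 99.0 at position 83455885, 507 bp downstream of Tet3-203 and 14471 bp from the first. The outermost TSS of Tet3, whose sequence is shown above, was unmarked. Smarcc1 had summits of 215 at position 110117698 of chromosome 9, 10 bp upstream of its outermost TSS, and of 150.4 at 110132233, 14535 bp further into the gene. The first lay 66 bp upstream of the start of Dhx30, a coding gene on the opposite strand.

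Tet1 had 107 at position 62887270 of chromosome 10, 54 bp downstream of Tet1-207, and a higher 171 at 62865702, 398 bp upstream of the noncoding transcript Tet1-202. These lay 21568 bp apart, and the outermost TSS of Tet1 had no summit. Kansl1 had 145 at position 104468740 of chromosome 11, 121 bp downstream of its outermost TSS, and 186 at 104442712, 421 bp upstream of the internal start of Kansl1-204 and Kansl1-205, with a weak gene body summit of 2.096 that lay 29060 bp from the 5′ end. In both genes the more internal start site carried the higher score.

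Chd8 had its best summit of 231 at position 52257466 of chromosome 14, 257 bp downstream of a TSS at its 5′ end, and a second of 198 at 52244343, 166 bp downstream of the TSS of Chd8-213. The remaining summits, of 52.1 at 52202272 and 8.07 at 52201673, lay near the 3′ end of the gene, within 1 kb of both the short transcript Chd8-216 and the antisense gene Gm26590, so they cannot be assigned to Chd8 alone. Over the 4 summits the span was 55793 bp.

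Bcor had the widest spread of the 6. On chromosome X its promoter summits scored 161.6 at position 12079753, 800 bp downstream of the start shared by 4 coding transcripts, 92.4 at 12128116, 234 bp downstream of Bcor-205, and 62.5 at 12159813, 533 bp downstream of the outermost TSS, and they spanned 80060 bp. Another 9 summits lay in its gene body, with scores from 2.84 to 79.5. The score thus decreased from the most internal start to the outermost.

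**Figure D3:**
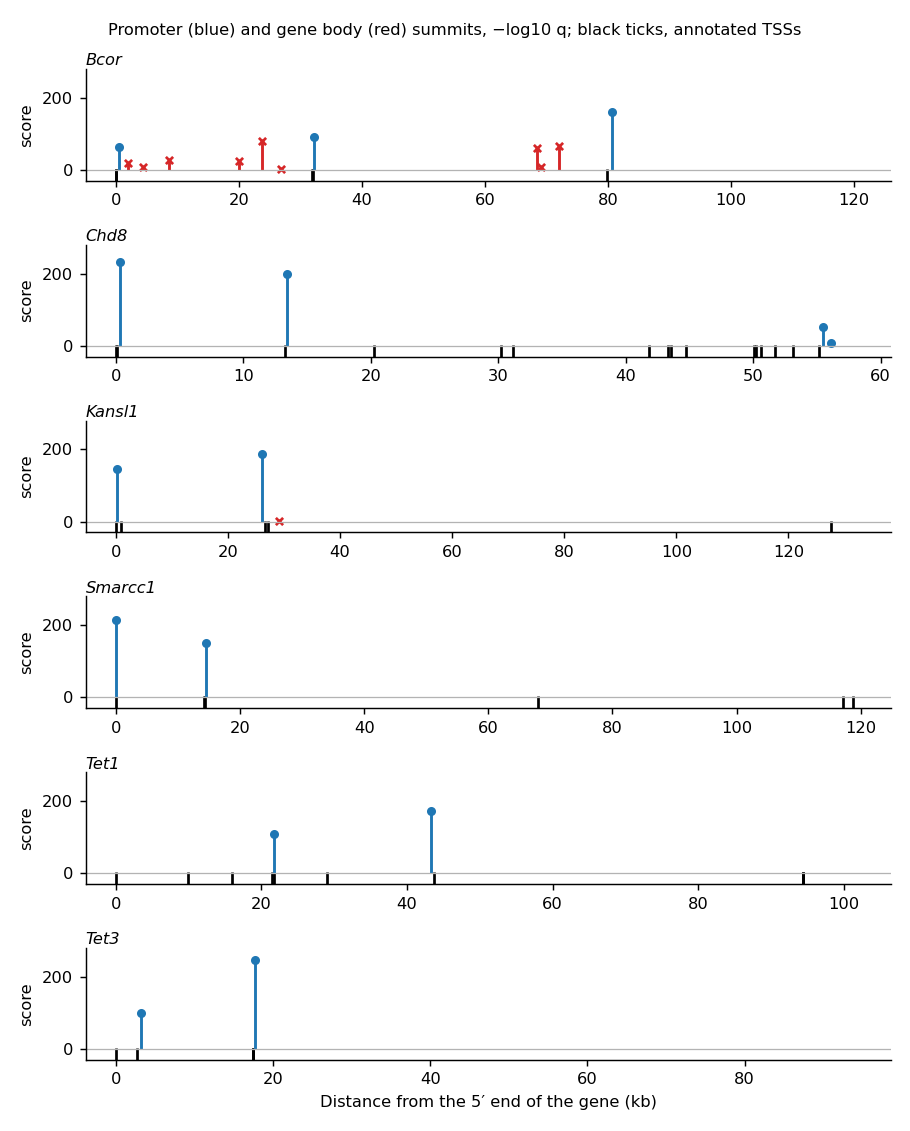
Score (−log10 q, y axis) of promoter summits (blue) and gene body summits (red) along the 6 regulators with promoter summits over 10 kb apart, by distance from the 5′ end of the gene (kb, x axis, own scale for each gene), with annotated TSSs as black ticks. In Tet3, Tet1, Kansl1 and Bcor the highest stem stands inside the gene, and in Chd8 and Smarcc1 at its 5′ end.

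Gene body summits were found in 14 regulators (25.9%), against 14.7% of all protein-coding genes. Among coding genes of at least 50 kb, 33.2% had one, and of the 38 regulators of that length 31.6% did, so the share among long regulators was close to that of long genes in general. The 26 gene body summits fell into separate ranges of score, with 6 over 150, 3 from 50 to 80, and 17 under 30. By the annotation 22 lay in introns and 4 in exons, and 0 lay within 1 kb of the TSS of another annotated gene. Bcor alone held 9 of the 26. These counts by score and by annotation were not set beside those of all protein-coding genes.

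In 5 regulators (9.26%) a gene body summit scored higher than the best promoter summit, against 2.62% of the protein-coding genes with a promoter summit. These genes too were grouped after the values were seen. Of coding genes of at least 50 kb 33.2% had a gene body summit, against 14.7% of all, and 38 of the 54 regulators are that long. The share with a higher-scoring gene body summit was not computed for long coding genes. The part of gene length in this contrast was therefore not tested. Kdm6b had the largest gap: its gene body summit of 219 at position 69411580, in an intron 2095 bp downstream of the TSS, stood beside promoter scores of 6.24 and 2.63. On the other side of its TSS, 2033 bp upstream, lay a further summit of 126 at position 69415708, whose nearest annotated TSS of any gene was that of Kdm6b. The strongly scored summits around the start of Kdm6b therefore lay about 2 kb from the annotated TSS on either side, outside the promoter window.

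Dnmt3a had a gene body summit of 215 at position 3808235 of chromosome 12, 1075 bp downstream of the TSS of Dnmt3a-218, beside its promoter score of 100.1. Arid1a, mutated in Coffin-Siris syndrome and the second lowest of the 54 by its promoter, scored 99.0 at position 133757170 of chromosome 4, 401 bp upstream of its outermost TSS, and 172 in the gene body at 133751918, 1693 bp downstream of an internal start. Kdm6a scored 213 at position 18162152 of chromosome X, 423 bp upstream, and 223 at 18163794, 1146 bp downstream. In these 3 genes a strong summit lay on the gene side of the start, at 1075 to 1693 bp.

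Smarca2 differed from the others. Its gene body summit of 170.2 at position 26606121 of chromosome 19 lay 1002 bp downstream of a TSS near the 5′ end, just outside the promoter window. Its promoter summits, of 131 at 26747928, 44.9 at 26749899 and 11.1 at 26751168, all lay 142878 to 146118 bp into the gene, at internal starts of the shorter transcripts. The best promoter score of Smarca2 therefore belongs to an internal start, and the summit at its 5′ end was counted in the gene body.

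**Figure D4:**
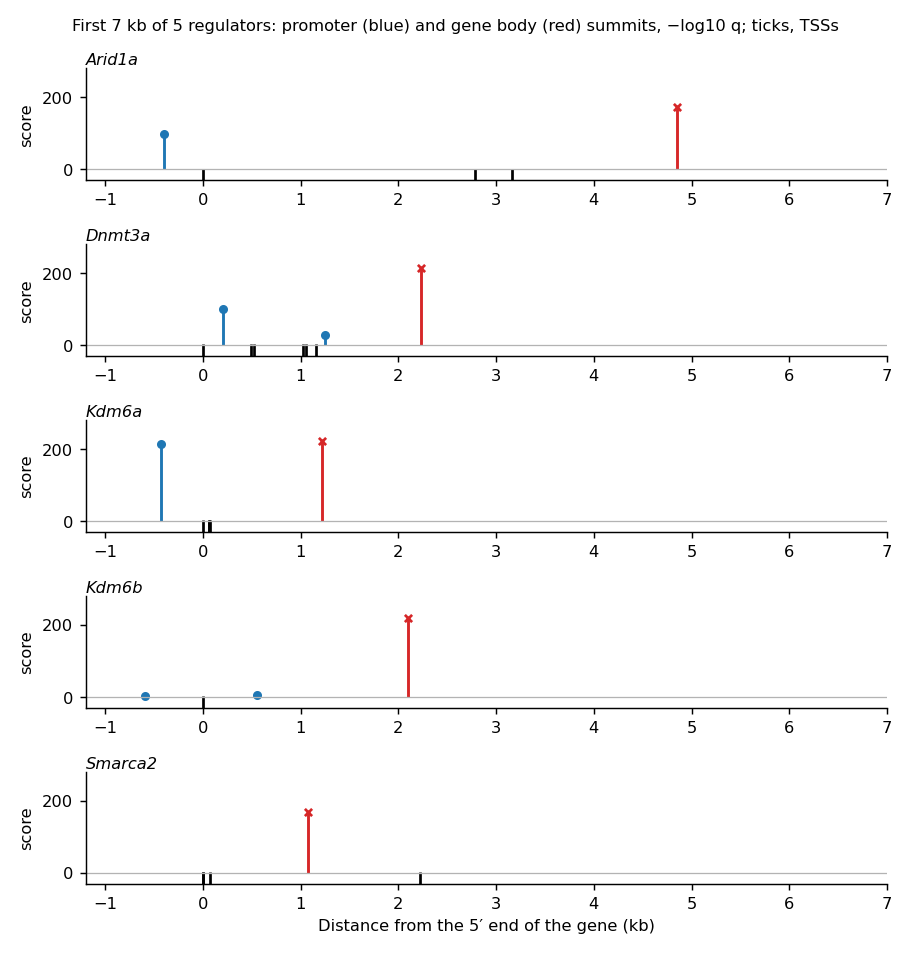
Score (−log10 q, y axis) of promoter summits (blue) and gene body summits (red) in the first 7 kb of the 5 regulators whose gene body summit scored higher than the promoter, by distance from the 5′ end (kb, x axis), with TSSs as black ticks. The red stems stand 1071 to 4851 bp into the gene, and the promoter summits of Smarca2 lie outside the range shown.

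Best promoter summits lay mostly inside the genes. Of the 54, 38 were downstream of their nearest TSS (70.4%) and 16 upstream, against 79.3% downstream for all marked protein-coding genes. The median distance was 216.5 bp downstream, with quartiles of -138 and 571 bp, where a negative value is upstream. For all marked protein-coding genes the median was 171 bp, with quartiles of 49 and 327 bp. The best summits of the regulators were thus more widely spread around the TSS. Within 250 bp of a TSS lay 18 of the best summits of the regulators, 19 lay at 250 to 500 bp, and 17 farther out. The nearest was that of Smarcc1, at 10 bp, and the farthest were those of Arid2, 938 bp downstream, and Asxl1, 875 bp upstream. By the annotation 16 best summits were in an exon, 27 in the gene but in no exon, and 11 before its 5′ end. These counts by distance and by annotation were not set beside those of all protein-coding genes.

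Some of these promoters are shared with other genes, and the reads there cannot be told apart, because H3K4me3 has no strand. The best summit of 12 regulators lay within 1 kb of the TSS of another gene, a share of 22.2%, against 30.2% of the marked protein-coding genes. For 10 the other gene was on the opposite strand (18.5%, against 27.3%). It was a coding gene on that strand for 3 (5.56%, against 16.4%), namely Dhx30 beside Smarcc1, Agrp beside Ctcf and Ribc1 beside Smc1a.

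Not all annotated start sites were marked. The 54 genes have 459 distinct TSSs, of which 201 (43.8%) had a summit within 1 kb. For all protein-coding genes 51.7% of 93513 TSSs did. Marked and unmarked TSSs of the regulators differed in CpG content. The ratio of observed to expected CpG in 500 bp either side had a median of 0.82, with quartiles of 0.67 and 0.94, at the marked TSSs, and of 0.25, with quartiles of 0.17 and 0.34, at the unmarked ones. A ratio below 0.4 was found at 9 of the 201 marked TSSs (4.48%) and at 223 of the 258 unmarked TSSs (86.4%). Among all protein-coding genes these shares were 11.4% and 87.7%, with medians of 0.72 and 0.22, so the regulators followed the pattern of coding genes in general. TSSs of a gene can lie close together and share a summit, and are not independent points.

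**Figure D5:**
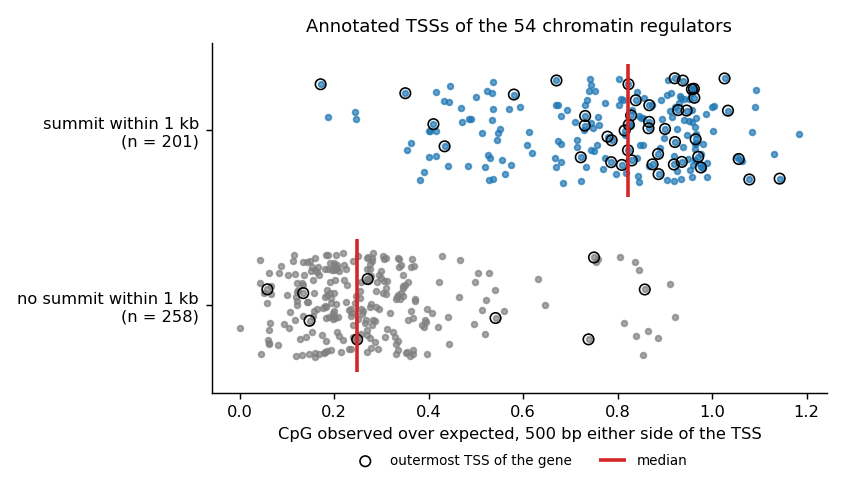
Ratio of observed to expected CpG in 500 bp either side of each TSS (x axis) for the 201 TSSs of the 54 regulators with a summit within 1 kb and the 258 without one (y axis, points spread vertically for legibility), with the medians of 0.82 and 0.25 as red lines and the outermost TSS of each gene circled. The clouds overlap little, and 9 of the circled TSSs are unmarked.

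The outermost TSS was marked in 45 regulators (83.3%), against 58.2% of all protein-coding genes. The 58.2% counts coding genes without any promoter summit, while all 54 regulators had one. Of the 14197 coding genes with a promoter summit, 12762 had a marked outermost TSS, a higher share than in the regulators. The 9 regulators with an unmarked outermost TSS were Tet1, Tet2, Tet3, Dnmt1, Chd4, Nsd1, Kat6b, Hdac4 and Smarca2. They included 4 of the 6 DNA methylation enzymes. In each the best summit lay at another start. For Dnmt1 it was at position 20952370 of chromosome 9, 7518 bp into the gene and 235 bp downstream of Dnmt1-207. For Kat6b it lay 18520 bp in, for Hdac4 16174 bp, and for Tet1 43294 bp. For Nsd1 it was 2940 bp in. For Tet2 it was only 1255 bp in and for Chd4 1198 bp, so for these the mark lay just beyond the window of the outermost start. The CpG ratio at the unmarked outermost TSS was below 0.4 in 5 of the 9 regulators (55.6%). Of the unmarked outermost TSSs of all protein-coding genes, 83.1% were below 0.4. Smarca2 (0.86), Tet2 (0.75), Chd4 (0.74) and Nsd1 (0.54) had higher ratios, so a low CpG ratio did not mark out all 9. Of these, Smarca2 had its gene body summit of 170.2 at 1071 bp from the outermost TSS. In Smarca2, Tet2 and Chd4 a summit thus lay just beyond the window of a start with a higher ratio.

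On chromosome X, of which male mice have a single copy, lie 7 of the regulators: Kdm6a, Phf8, Phf6, Atrx, Smc1a, Bcor and Hdac8. Their median best score was 189, against 204 for the 47 on other chromosomes. Over all protein-coding genes the medians were 163 on X, where 487 of 948 genes had a promoter summit, and 197 elsewhere. Of the 7, 5 scored above the median of X-linked genes (not Bcor and Hdac8) and 4 below the median of the other regulators. None reached the upper quartile of the marked coding genes, and of the 487 marked X-linked coding genes only 10 did.

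The partners of these regulators were read from lists of genes that work in the same complexes. Of 91 partners, 89 had a promoter summit, with a median best score of 187. The exceptions were Bicral, a BAF subunit with a gene body summit of 229, and Dnmt3l, a germline cofactor of the de novo methyltransferases with no summit. At least 2 promoter summits were found at 33 partners (36.3%), and a gene body summit at 12 (13.2%). By complex, the medians were 214 for 8 PRC2 partners, 199 for the marked DNA methylation partners, 198 for 8 cohesin partners, 189 for the 18 marked BAF partners, 186 for 12 partners of the ASXL and BCOR complexes, 184 for 18 acetylation partners and for 13 CHD and NuRD partners, and 166 for 8 partners of the H3K9 and H3K36 enzymes.

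The enzymes of H3K4 methylation itself, among which the study's mutated genes lie, gave similar values in WT. Of 11 methyltransferases and core COMPASS subunits, 10 had a promoter summit, with a median best score of 206. Setd1b had none, and had a gene body summit of 87.4. Kmt2a scored 215. All 6 H3K4 demethylases had a single promoter summit, with a median of 193, and Kdm5c scored 184.

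Markers of brain cell types were read as a check of the labelled tissue. Of 10 neuron markers 9 had a promoter summit, with a median best score of 199.8, and Stmn2 had gene body summits only, the highest of 152. Of 5 astrocyte markers 5 had one (median 67.1), of 6 oligodendrocyte markers 4 (median 122, Olig1 and Sox10 without), of 4 endothelial markers 4 (median 27.7), and of 8 markers of other organs 0 had one. Gene body summits were present at Olig1 (124) and Sox10 (highest 70.0), and also at the other-organ markers Apoa1, a liver apolipoprotein gene, with 128, and Myh6, with 2.73. The tissue is a mixture of cells, and the share of cells that carry a summit and the amount of mark per cell cannot be told apart.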

How the data were processed

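H3K4me3 was measured by native ChIP-seq after MNase digestion. By the study's methods, reads that mapped uniquely to mm10 with up to 2 mismatches (Bowtie) were kept, and the authors called peaks with MACS2 2.1.0.20140616 against input at q < 0.1. The authors deposited the WT summits as 1 list for 2 mice, each 1 bp wide, with a score taken here to be a −log10 q-value. The list does not name this scale, but its lowest score of 1.18 is just above that of the threshold. Depth, peak width and the spread between mice are not given by the list, and other genotypes were not analysed here.

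Summits were assigned to genes with GENCODE M21 TSSs (1 kb either side for promoters) in Python 3.11.15 with pandas 2.3.3. The best promoter summit is the one with the highest score. CpG ratios and sequences came from the GRCm38 reference, whose chromosomes contain every summit position. Placement was tested on simulated summits. No p-values were computed.

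The 54 genes, their roles and the lists of partners and markers were chosen with earlier results of these data known. Best scores are given for all 54 genes, and positions for the 5 highest and 5 lowest, for those with at least 2 promoter summits and for those with a gene body summit. Alternatives covered the score threshold, the promoter window, the TSSs used and the joining of close summits.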

Additional observations from a re-analysis of the deposited data

How the results depend on the processing

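All 54 regulators kept a promoter summit with TSSs of protein-coding transcripts only and with summits within 1 kb joined, against 63.5% and 64.6% of all protein-coding genes. All 54 also had one with a window of 3 kb, which cannot remove a promoter summit, against 67.1%. When summits that scored below the list's median were dropped, 51 had one (Arid1a, Dnmt3a and Kdm6b lost theirs), against 52.0% of all protein-coding genes. With a window of 500 bp 42 did, against 57.1%, and with the outermost TSS alone 45 did, against 58.2%. The median best score of 204 became 205.9 without the low-scoring summits, 203 with 500 bp and with coding TSSs, 205.9 with 3 kb, and 189 with the outermost TSS. For marked protein-coding genes the median was 209.6 without the low-scoring summits, 191 with 500 bp, 194.6 with coding TSSs, 194.7 with 3 kb, and 193.8 with the outermost TSS. The regulators' median was thus the lower one without the low-scoring summits and with the outermost TSS, and otherwise the higher one. The number with at least 2 promoter summits fell from 22 to 11 without the low-scoring summits, to 11 with 500 bp and to 9 with the outermost TSS. The number with a gene body summit, 14, became 6 without the low-scoring summits, 29 with a window of 500 bp, 5 with 3 kb and 25 when only the outermost TSS counted. For both counts the shares over all protein-coding genes were computed only with the main setting, at 11.7% and 14.7%. Whether the regulators still differ from all coding genes in these counts under the other settings was not tested. The median distance of 216.5 bp became 217 bp without the low-scoring summits, 101.5 bp with a window of 500 bp, 244 bp with 3 kb, 287.5 bp with coding TSSs, and 314 bp from the outermost TSS. These moves follow from which summits and TSSs each setting admits. With 3 kb the best scores of Arid1a, Arid2, Smarca2, Dnmt3a, Kdm6a and Kdm6b rose to that of a summit beyond 1 kb. Other best scores fell. With coding TSSs Ep300 went from 240.0 to 68.6 and Tet1 from 171 to 107. With 500 bp Bptf went from 215 to 55.0, Adnp from 234 to 73.2, Arid1b from 171 to 67.0, Bcor from 162 to 92.4 and Hdac4 from 156 to 126, and 12 genes lost their promoter summit (Chd2, Chd4, Suz12, Nipbl, Smc3, Kat6a, Ehmt1, Asxl1, Nsd2, Chd3, Arid2 and Kdm6b). With the outermost TSS Ep300 had 68.6, Arid1b 67.0, Bcor 62.5, Crebbp 98.7, Ehmt2 169 and Kansl1 145, and the 9 genes whose outermost TSS was unmarked lost theirs.

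No paired analysis was possible because the WT mice share 1 list, and for the same reason no fit without either mouse was made. Scores depend on sequencing depth, which the list does not give, and a gene without a summit was not detected at this depth.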

Other observations

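A few of the partners and family members had low scores, of which some are known for roles in germ cells or dividing cells. Of 4 meiotic cohesin genes, Stag3 scored 31.2 at its best promoter summit, Smc1b 27.4 and Rec8 7.77, and Rad21l had no summit. Esco2, an acetyltransferase that acts on cohesin during DNA replication, scored 5.95, the lowest of the 91 partners. Uhrf1, which recruits DNMT1 to newly replicated DNA, scored 57.7, and Phf19, a PRC2 partner, 44.7. These genes were picked out after their values were seen.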
